A study of Mus musculus with 16 samples.

Results

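The 9 genes described here, Mbp, Mobp, Mal, Cldn11, Mag, Mog, Cnp, Ugt8a and Opalin, are transcribed in mature oligodendrocytes and encode proteins of myelin or enzymes of its assembly. They were chosen by name, by matching their symbols to the gene names of the count table, and all 9 were found among the 54532 genes listed. Their transcripts were measured by RNA sequencing (RNA-seq) in the hippocampus of 16 mice, 4 in each of the groups hTau.P301S, hTau.P301S + NR, WT and WT + NR. The hTau.P301S line expresses human Tau with the P301S mutation from the Thy1 promoter, which is active mainly in neurons, and the WT mice lack the transgene. NR, nicotinamide riboside, a precursor of NAD+, was supplied in the drinking water at 6 mM, and the untreated groups received vehicle water. The sample labels give a treatment of 3 months, between 12 and 15 months of age. The text of the study gives other ages, and in 1 passage another length. Each library came from a different mouse, and RNA was extracted from hippocampal tissue without separating cells.

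Oligodendrocytes wrap axons in many turns of their plasma membrane and compact these turns into myelin, which speeds conduction and supplies the axon with metabolites. Compaction depends on a few very abundant proteins that hold the membrane faces together, on adhesion molecules at the inner and outer surfaces of the sheath, and on lipids such as galactosylceramide that make up much of the membrane. Their genes are switched on together when a precursor matures, under the transcription factors Olig2, Sox10 and Myrf.

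Total counts per mouse ranged from 16490261 to 21915362. Levels are given as CPM, the counts of a gene scaled to the normalized total of its mouse. The 9 genes together took from 0.227% of the counts of a mouse, in WT replicate 3, to 0.806%, in WT + NR replicate 3. A pair of libraries stood apart in these genes and are named with each result that rests on them. In hTau.P301S replicate 1, 14.4% of counts were mitochondrial and 19467 genes were detected, against 4.48% to 7.07% and at least 22199 genes in the other 15 mice. This library also gave higher counts for short genes and lower counts for long ones, with a trend of 0.94 at 1700 bases and -0.58 at 6800 bases on the log2 scale. WT replicate 3 was the lowest of the 16 mice for 8 of the 9 genes. Markers of neighbouring tissue varied between mice within groups, with the summed level of 5 choroid plexus markers running from 18.9 to 9776 CPM and that of 6 striatal markers from 65.3 to 1464 CPM. In bulk tissue, fewer oligodendrocytes and less RNA per oligodendrocyte cannot be told apart, here and in every other result.

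The levels of the 9 genes spanned a wide range. Per kilobase of the gene length listed by the authors, the median over 16 mice was highest for Mbp, the myelin basic protein that binds the cytoplasmic membrane faces to each other, at 474 CPM per kilobase. Mobp, another cytoplasmic protein of compact myelin, had 166 CPM per kilobase. Cnp, an enzyme that keeps cytoplasmic channels open within the sheath, had 118 CPM per kilobase. Mal, a membrane protein of vesicle traffic to myelin, and Cldn11, the claudin of the tight junctions between myelin turns, were next, with 99.1 and 93.4 CPM per kilobase. Mag and Mog, adhesion proteins of the inner and the outer surface of the sheath, had 47.5 and 40.2 CPM per kilobase. Opalin, a membrane glycoprotein of mature oligodendrocytes, and Ugt8a, the enzyme that makes galactosylceramide, were lowest, with 14.9 and 14.6 CPM per kilobase. Neighbours in this order overlapped in WT mice, where Mal was at 72.4 ± 28.6 (n = 4, SD) and Cldn11 at 69.9 ± 27.1 CPM per kilobase (n = 4, SD). Mag and Mog also lay within their spread in WT mice, at 39.7 ± 15.5 (n = 4, SD) and 32.2 ± 12.0 CPM per kilobase (n = 4, SD).

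Depth was not limiting for any of the 9 genes. The lowest count of Opalin in a mouse was 117, in an hTau.P301S mouse, and the lowest count of Ugt8a was 432, also in an hTau.P301S mouse. Mbp had at least 26359 counts in every mouse.

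Because the 9 genes are known to be switched on together, the bases before their start sites are shown for those in which a motif of an oligodendrocyte transcription factor was found. RefSeq promoter windows on GRCm38.p6 were searched from 250 bases before to 50 bases after each annotated start, on both strands. The search covered CTGGCAC, the core of the Myrf motif, ACAAAG, a core bound by Sox factors, and CAGCTG, an E-box of the kind bound by Olig2. A window was matched for 8 of the 9 genes, all but Mbp. These 8 genes had 10 windows, 3 of them for Mag. The Myrf core was found in 4 of the 10 windows, of Cnp, Mag and Opalin, and in 5.01% of 32851 promoter windows. The Sox core was found in 5 of the 10, of Cnp, Mag, Mobp and Opalin, and in 18.7% of all windows. The E-box was found in 1 of the 10, that of Opalin, and in 16.3% of all windows. A pair of the Mag windows overlap and hold the same Myrf and Sox matches, which are counted in both. Counted by gene, the Myrf core was found in 3 of 8, the Sox core in 4 of 8 and the E-box in 1 of 8. The 250 bases before the start are printed from 5′ to 3′ on the strand of the gene, with the letters of each match in capitals, for Opalin at chr19:41077114-41077363 (minus strand), Cnp at chr11:100574689-100574938 (plus strand), Mag at chr7:30914864-30915113 (minus strand, 1 of 3 windows listed) and Mobp at chr9:120149492-120149741 (plus strand).
Opalin: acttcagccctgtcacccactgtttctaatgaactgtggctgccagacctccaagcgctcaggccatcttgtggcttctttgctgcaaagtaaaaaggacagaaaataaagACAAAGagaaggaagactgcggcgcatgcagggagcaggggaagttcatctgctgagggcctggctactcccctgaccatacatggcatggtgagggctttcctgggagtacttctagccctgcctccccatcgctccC
Cnp: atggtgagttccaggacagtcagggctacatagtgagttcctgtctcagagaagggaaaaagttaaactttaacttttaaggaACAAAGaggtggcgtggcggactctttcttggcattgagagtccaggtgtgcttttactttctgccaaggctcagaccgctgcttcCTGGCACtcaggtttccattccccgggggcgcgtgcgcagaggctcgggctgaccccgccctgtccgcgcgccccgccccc
Mag: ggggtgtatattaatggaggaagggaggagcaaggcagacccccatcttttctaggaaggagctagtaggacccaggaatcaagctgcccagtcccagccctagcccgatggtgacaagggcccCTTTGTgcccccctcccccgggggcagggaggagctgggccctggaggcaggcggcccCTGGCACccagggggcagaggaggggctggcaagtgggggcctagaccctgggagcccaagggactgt
Mobp: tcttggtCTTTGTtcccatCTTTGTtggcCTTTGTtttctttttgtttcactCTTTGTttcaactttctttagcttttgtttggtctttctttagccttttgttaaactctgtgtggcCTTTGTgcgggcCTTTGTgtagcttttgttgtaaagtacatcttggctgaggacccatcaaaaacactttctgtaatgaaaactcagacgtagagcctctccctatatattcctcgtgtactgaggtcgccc
Opalin, the least abundant of these 4 genes, carried all 3 motifs, and the capital at its last base begins an E-box that runs across the start. Its Myrf core lay 36 bases after the start, outside the bases printed. In Cnp the Myrf core began 81 bases before the start, and in Mag 68 bases before it. Mobp held 6 copies of the Sox core and no Myrf core. Such matches describe the letters of these windows and are not evidence of binding.

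In the annotation of GRCm38, Mal lies on chromosome 2 (127633226 to 127656695), Cldn11 on chromosome 3 (31149920 to 31164324), Ugt8a on chromosome 3 (125865271 to 125938619), Mag on chromosome 7 (30899176 to 30914873), Mobp on chromosome 9 (120149707 to 120181484), Cnp on chromosome 11 (100574904 to 100591729), Mog on chromosome 17 (37010743 to 37023398) and Opalin on chromosome 19 (41061710 to 41077113). All 8 are annotated as protein coding. The counts cover whole genes, and transcript isoforms were not analysed here.

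Mbp was at 4062, 3247, 1390 and 3342 CPM in the WT mice and at 4514, 3331, 4681 and 3388 CPM in the WT + NR mice. It was at 6495, 3910, 5084 and 4264 CPM in the hTau.P301S mice and at 4321, 4278, 3523 and 3373 CPM in the hTau.P301S + NR mice. The highest value was in hTau.P301S replicate 1, the lowest in WT replicate 3, and the 4 groups overlapped.

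Mobp was at 1186, 774, 351 and 959 CPM in WT, at 1399, 1042, 1385 and 1006 CPM in WT + NR, at 886, 1468, 1366 and 1548 CPM in hTau.P301S and at 1249, 1531, 1087 and 1063 CPM in hTau.P301S + NR mice. Here hTau.P301S replicate 1, the highest mouse for Mbp, was the lowest of its group.

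Mal was at 272, 199, 90.5 and 242 CPM in WT, at 290, 252, 291 and 236 CPM in WT + NR, at 344, 283, 322 and 358 CPM in hTau.P301S and at 279, 310, 228 and 245 CPM in hTau.P301S + NR mice. The 4 hTau.P301S mice were all above the 4 WT mice. Cldn11 was at 175, 137, 58.4 and 152 CPM in WT, at 229, 160, 169 and 158 CPM in WT + NR, at 334, 240, 245 and 239 CPM in hTau.P301S and at 222, 198, 174 and 173 CPM in hTau.P301S + NR mice. All hTau.P301S mice were above all WT and all hTau.P301S + NR mice.

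Ugt8a, the lipid enzyme, took another course. It was at 80.6, 52.3, 24.8 and 67.1 CPM in WT, at 65.4, 75.7, 62.5 and 69.0 CPM in WT + NR, at 36.9, 25.5, 57.0 and 51.4 CPM in hTau.P301S and at 117, 85.0, 80.4 and 76.6 CPM in hTau.P301S + NR mice. The hTau.P301S + NR mice were above all WT + NR and all hTau.P301S mice, and the lowest of them lay below the highest WT mouse.

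Opalin was at 26.8, 27.1, 11.1 and 27.6 CPM in WT, at 37.7, 27.0, 28.9 and 27.6 CPM in WT + NR, at 209, 6.20, 29.8 and 23.6 CPM in hTau.P301S and at 40.9, 23.1, 31.4 and 22.0 CPM in hTau.P301S + NR mice. The highest and the lowest of the 16 mice both belonged to the hTau.P301S group. Replicate 1 was the high one and replicate 2 the low one.

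The other genes ran alongside these. Cnp ranged from 184 to 486 CPM in WT, 374 to 490 CPM in WT + NR, 303 to 1034 CPM in hTau.P301S and 345 to 475 CPM in hTau.P301S + NR mice. Mag ranged from 75.8 to 213 CPM, 168 to 257 CPM, 141 to 291 CPM and 150 to 251 CPM in the same order of groups. Mog ranged from 25.4 to 68.8 CPM, 64.9 to 83.4 CPM, 52.2 to 218 CPM and 57.6 to 78.9 CPM. For all 3 genes the highest value was in hTau.P301S replicate 1, the lowest in WT replicate 3, and the groups overlapped in every pair.

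**Figure D1:**
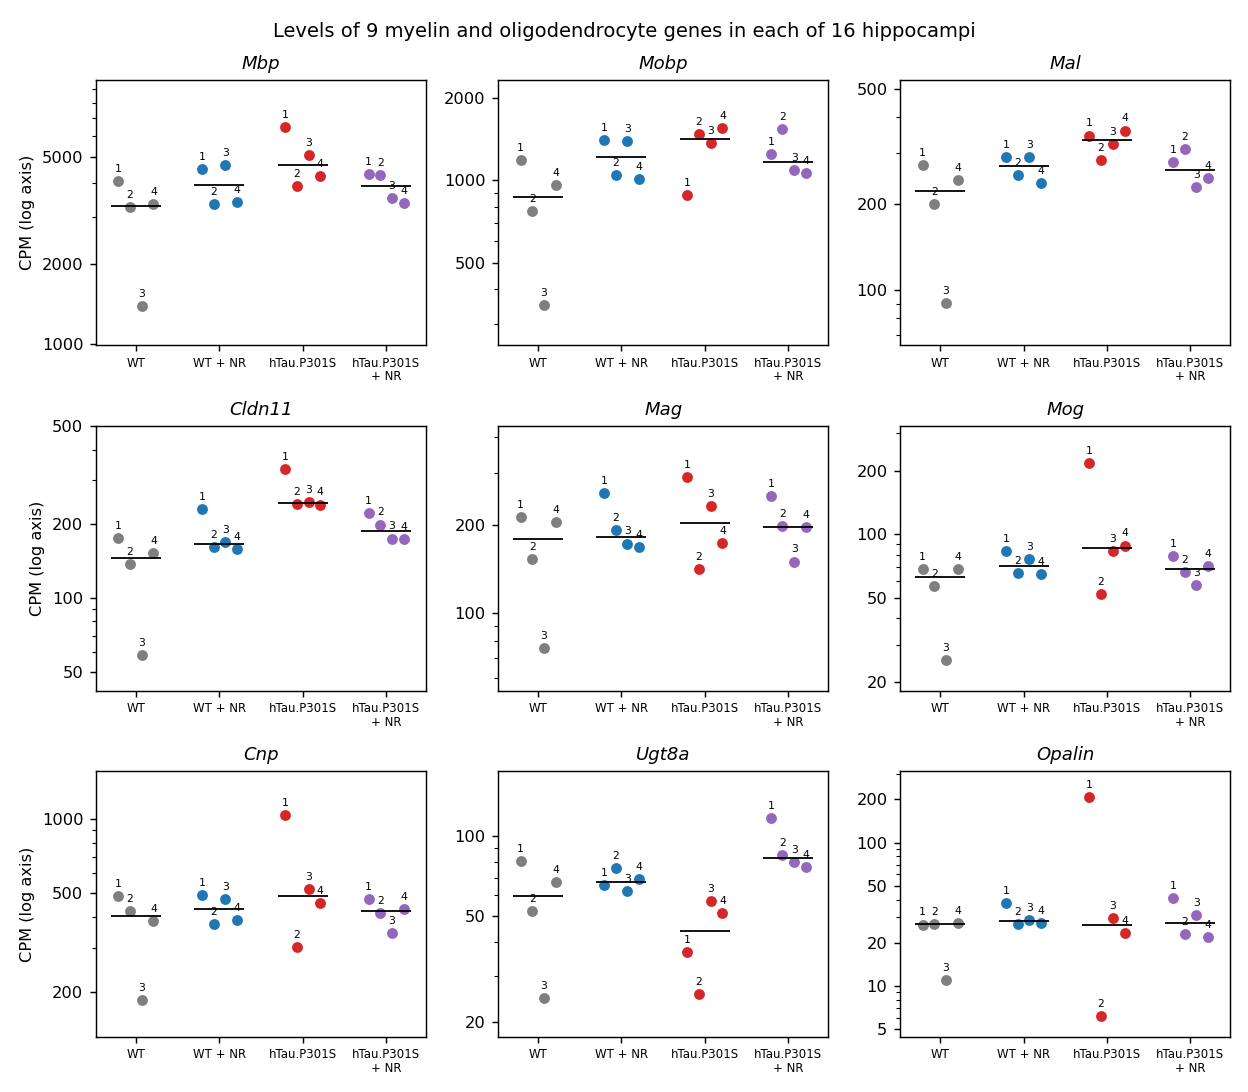
CPM of the 9 genes in each mouse (log axis), with the replicate number above each point and the group median as a line. WT replicate 3 is the lowest mouse for 8 genes, and hTau.P301S replicate 1 is the highest for 6, among them Opalin at 209 CPM.

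WT replicate 3 lay 1.41 below the 16-mouse mean on the log2 scale, averaged over the 9 genes, and the genes deviated alike, from -1.63 to -1.20. In this mouse the summed level of 8 neuron markers was 7580 CPM, against 4236 to 5915 CPM in the other WT mice. The 16 mice ranged from 3900 to 7777 CPM, and whether the makeup of WT replicate 3 bore on the 9 genes was not tested. In hTau.P301S replicate 1 the deviations ran from -0.69 for Ugt8a to 2.92 for Opalin. The SD over the 9 genes was 1.06 in this mouse and 0.83 in hTau.P301S replicate 2, and from 0.12 to 0.29 in the other 14. The genes high in hTau.P301S replicate 1 included the short Opalin, Mog and Cldn11 (1838, 1704 and 1870 bases), and those below their means were Ugt8a and Mobp (4536 and 6849 bases), while Mbp at 8403 bases was also high there. The same mouse had the lowest summed neuron markers, 3900 CPM, and the highest summed microglia markers, 1562 CPM against 236 to 486 CPM in the other 15, and the part of these in its pattern was not tested.

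**Figure D2:**
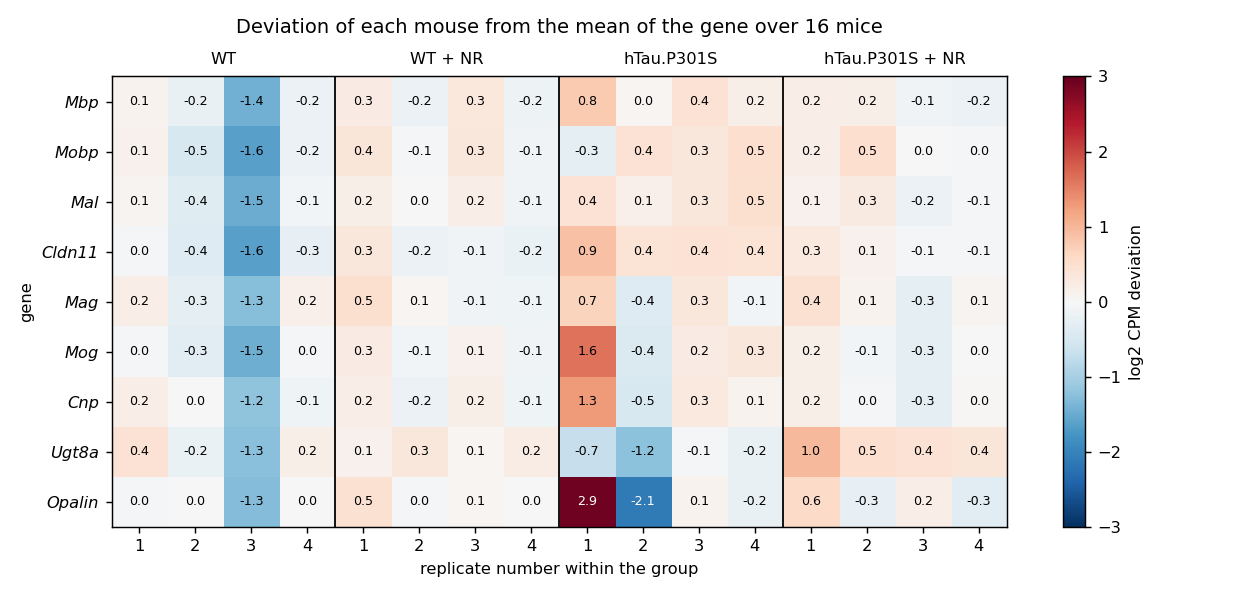
Deviation of each mouse from the mean of each gene over 16 mice, in log2 CPM, by group and replicate. WT replicate 3 is low in every gene, at -1.2 or below, while hTau.P301S replicates 1 and 2 differ from gene to gene.

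Over the 12 mice outside the untreated hTau.P301S group, the 36 pairs of genes had Pearson correlations of log2 CPM from 0.79 to 0.99, with a median of 0.91. Leaving out WT replicate 3 as well lowered the median to 0.55, with a range from 0.08 to 0.96 over 11 mice. Over all 16 mice the median was 0.78 and the range 0.06 to 0.97. Ugt8a correlated least with the other 8 genes over the 16 mice, with a median of 0.30, and Mbp most, with a median of 0.87. These correlations describe mice that share library composition and depth, and much of their height rests on WT replicate 3. Of the other genes, those most like the mean of the 9 over 16 mice, among 17546 ranked by Pearson correlation, were Aspa (0.93), which degrades N-acetylaspartate in oligodendrocytes, S1pr5 (0.92), a receptor for sphingosine 1-phosphate, Evi2a (0.91), Gltp (0.89), a glycolipid transfer protein, and Frmd8 (0.89), followed by Rhog, Bcas1, Nkain1, Plekhb1 and Cyp2j12 (0.87 to 0.89). Without hTau.P301S replicate 1 and WT replicate 3 the correlations of the first 5 were 0.75, 0.72, 0.82, 0.65 and 0.50.

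The first comparison, of hTau.P301S with WT mice, describes how the hippocampus differs between mice with and without the Tau transgene. The study does not say whether the WT mice were littermates. Other differences between the lines therefore cannot be told apart from the transgene. Of the 9 genes, 8 were higher in hTau.P301S mice and Ugt8a was lower, and none was called (edgeR, adjusted p under 0.05 and absolute log2 fold change above 0.5). Over all 16375 genes tested, 52.3% were higher whatever the p, 0.00611% were called and 7.14% had an unadjusted p under 0.05, as 1 of the 9 genes had. The median log2 fold change of the 9 genes was 0.70, against 0.02 over all genes. Without WT replicate 3 the median was 0.44, and without hTau.P301S replicate 1 it was also 0.44. Leaving out both mice, a choice made after seeing the data, gave a median of 0.20, with 5 of the 9 genes higher and 4 lower. Of the microglia markers, 4 of 5 had a fold change above 0 and none was called, with sums of 281 to 1562 CPM in hTau.P301S against 236 to 299 CPM in WT mice. All 6 striatal markers had one below 0, with sums of 74.2 to 131 CPM against 72.6 to 1464 CPM, the highest in WT replicate 2. The part of either in the 9 genes was not tested.

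Cldn11 had the smallest p of the 9 genes. It was at 265 ± 46.5 CPM (n = 4, SD) in hTau.P301S and 131 ± 50.6 CPM (n = 4, SD) in WT mice (log2 fold change 1.02, standard error (SE) 0.33, unadjusted p = 0.0129, adjusted p = 0.598, edgeR). No overlap between groups was seen, as for 3.55% of all genes in this direction (two-sided exact permutation p = 0.0286, the smallest that 4 mice against 4 allow). DESeq2 fitted to all 16 mice, an alternative added after seeing the data, called Cldn11 (adjusted p = 0.0156) among 494 genes, 2.81% of those tested. Over the 20 alternatives the adjusted p of Cldn11 ran from 0.0156 to 0.869, and its log2 fold change from 0.64 to 1.16. It was 0.64 without WT replicate 3 and hTau.P301S replicate 1.

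Mal was the other gene whose groups did not overlap, at 327 ± 33.1 CPM (n = 4, SD) against 201 ± 79.4 CPM (n = 4, SD). Its log2 fold change was 0.70 (SE 0.32, adjusted p = 0.598, edgeR; two-sided exact permutation p = 0.0286). It was 0.44 without WT replicate 3.

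Mbp was at 4938 ± 1149 CPM (n = 4, SD) in hTau.P301S and 3010 ± 1140 CPM (n = 4, SD) in WT mice, with a log2 fold change of 0.72 (SE 0.37, adjusted p = 0.598, edgeR). Mobp had a log2 fold change of 0.69 (SE 0.37) and Cnp one of 0.65 (SE 0.43). The adhesion proteins Mag and Mog had log2 fold changes of 0.38 (SE 0.36) and 1.02 (SE 0.48). Without WT replicate 3 the log2 fold change was 0.46 for Mbp, 0.42 for Mobp, 0.40 for Cnp and 0.12 for Mag. Without hTau.P301S replicate 1 it was 0.20 for Cnp, 0.17 for Mag and 0.44 for Mog. With the gene length trend removed from each mouse, an alternative added after seeing the data, Mog was at 0.60.

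Opalin had the highest fold change and the widest spread, 67.2 ± 95.3 CPM (n = 4, SD) in hTau.P301S against 23.2 ± 8.06 CPM (n = 4, SD) in WT mice. Its log2 fold change of 1.56 (SE 0.93, adjusted p = 0.598, edgeR) became -0.23 without hTau.P301S replicate 1, and it was 0.84 with the length trend removed. Ugt8a was at 42.7 ± 14.3 CPM (n = 4, SD) against 56.2 ± 23.9 CPM (n = 4, SD), a log2 fold change of -0.39 (SE 0.38, adjusted p = 0.696, edgeR). It was negative under all 20 alternatives, from -0.66 without WT replicate 3 to -0.20 without WT replicate 1, and not called under any of them. It was -0.23 without hTau.P301S replicate 2.

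**Figure D3:**
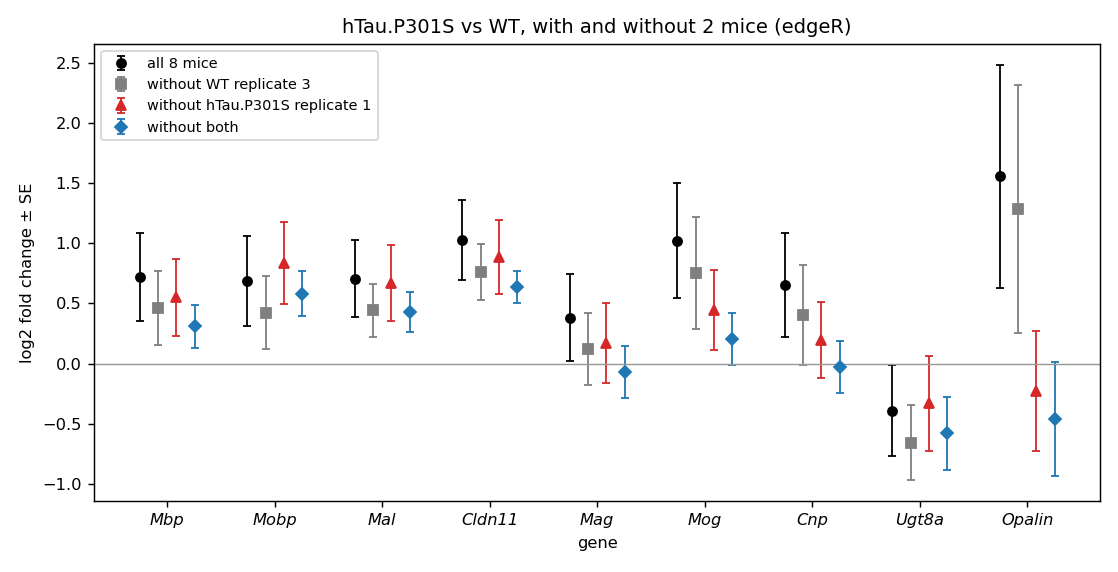
Log2 fold change of each gene between hTau.P301S and WT mice, with standard errors as bars, from all 8 mice and without WT replicate 3, hTau.P301S replicate 1 or both. Cldn11, Mal, Mbp and Mobp stay above 0 in all 4 fits, while Opalin goes from 1.56 to -0.23 without hTau.P301S replicate 1.

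In hTau.P301S mice, the comparison with and without NR asks what the NAD+ precursor changes in the presence of the transgene. Ugt8a was higher with NR and the other 8 genes were lower, and none was called by edgeR, where 0.0061% of 16386 genes were. Over all genes 52.4% were lower whatever the p. The median log2 fold change of the 9 genes was -0.36, against -0.03 over all genes. Without hTau.P301S replicate 1 the median was -0.12, with 3 genes higher and 6 lower, and with the length trend removed from each mouse it was -0.17, with 1 gene higher and 8 lower. All 6 striatal markers had a fold change above 0 with NR, with sums of 69.9 to 509 CPM against 74.2 to 131 CPM, and their part in the 9 genes was not tested. This comparison and that of hTau.P301S with WT share the hTau.P301S mice, so their fold changes are not independent.

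Ugt8a was at 89.7 ± 18.4 CPM (n = 4, SD) with NR and 42.7 ± 14.3 CPM (n = 4, SD) without it. The log2 fold change was 1.07 (SE 0.27, unadjusted p = 0.0038, adjusted p = 0.367, edgeR), and an unadjusted p under 0.05 was reached by 2 of the 9 genes and by 12.9% of all genes in this comparison. The 2 groups stood clear of each other, as for 6.33% of all genes in this direction (two-sided exact permutation p = 0.0286, the smallest possible). In a DESeq2 fit of these 8 mice it was called (adjusted p = 0.0272) among 283 genes, 1.73% of those tested. DESeq2 over all 16 mice, added after seeing the data, also called it (adjusted p = 0.0448) among 1.59% of genes, and none of the 17 alternatives with edgeR did, where the smallest adjusted p was 0.112. Over all 19 alternatives the adjusted p ran from 0.0272 to 0.658 and the log2 fold change from 0.89 to 1.23. It was 1.01 without hTau.P301S replicate 1.

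Cldn11 was at 192 ± 23.0 CPM (n = 4, SD) with NR and 265 ± 46.5 CPM (n = 4, SD) without it, a log2 fold change of -0.47 (SE 0.19, unadjusted p = 0.0345, adjusted p = 0.367, edgeR). Its groups did not overlap, as for 5.54% of genes in this direction (two-sided exact permutation p = 0.0286). With the length trend removed, its log2 fold change was -0.14. The other 7 genes overlapped between groups, with log2 fold changes from -1.22 for Opalin (SE 0.91) to -0.08 for Mag (SE 0.27). Opalin was at 29.3 ± 8.76 CPM (n = 4, SD) with NR and its log2 fold change was 0.57 without hTau.P301S replicate 1, where Mag was at 0.14. Mbp was at 3874 ± 496 CPM (n = 4, SD) with NR, a log2 fold change of -0.36 (SE 0.25, adjusted p = 0.461, edgeR). It was -0.18 without hTau.P301S replicate 1 and -0.73 with the length trend removed. Without the same mouse Cnp went from -0.48 to -0.017 and Mog from -0.71 to -0.12. With the length trend removed Mog was at -0.17, Opalin at -0.38 and Mal at -0.13, against -0.31 for Mal with it.

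In WT mice all 9 genes were higher with NR than without, and none was called. Over all genes 51.1% were higher whatever the p. By edgeR 0 of 16714 genes were called (0%), 132 had an unadjusted p under 0.05 (0.79%; 0 of the 9 genes), and DESeq2 on the same mice called 0. The median log2 fold change of the 9 genes was 0.41, against 0.00 over all genes, and it was 0.16 without WT replicate 3. The groups overlapped for all 9 genes, and 0.754% of all genes did not overlap. Mobp had the highest of the 9 fold changes, with 1208 ± 213 CPM (n = 4, SD) against 818 ± 354 CPM (n = 4, SD) and a log2 fold change of 0.57 (SE 0.33, adjusted p = 0.9999, edgeR). Cnp had the lowest, 0.23 (SE 0.27). Without WT replicate 3 all 9 stayed above 0, from 0.0011 for Cnp to 0.31 for Mobp. Markers of other tissue and cells also differed in level between these groups. All 6 striatal markers had a fold change below 0 with NR, with sums of 65.3 to 303 CPM against 72.6 to 1464 CPM, and all 5 choroid plexus markers had one above 0, with sums of 53.7 to 9776 CPM against 19.8 to 7932 CPM. All 5 microglia markers had one above 0, with sums of 256 to 486 CPM against 236 to 299 CPM. None of these markers was called, and their part in the 9 genes was not tested. Both comparisons with WT share the WT mice, and in both the median was lower without WT replicate 3.

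Between the NR-treated groups, which contain neither of the 2 libraries that stood apart, the 9 genes were close. In hTau.P301S + NR relative to WT + NR mice, the fold change was above 0 for 4 genes and below 0 for 5, none of them called, with 0.054% of 16671 genes called by edgeR and 53% lower whatever the p. The median log2 fold change was -0.01, against -0.02 over all genes. Apart from Ugt8a, the log2 fold changes lay between -0.09 for Mog (SE 0.13) and 0.10 for Cldn11 (SE 0.15). The direction of the 7 genes other than Ugt8a and Cldn11 changed with 1 or more alternatives. Mbp was at 3874 ± 496 CPM (n = 4, SD) and 3979 ± 718 CPM (n = 4, SD) in the respective groups, a log2 fold change of -0.04 (SE 0.17, adjusted p = 0.967, edgeR). All 5 choroid plexus markers had a fold change below 0, with sums of 58.9 to 3563 CPM against 53.7 to 9776 CPM. All 6 striatal markers had one above 0, with sums of 69.9 to 509 CPM against 65.3 to 303 CPM. So had all 5 thalamic markers, with sums of 108 to 306 CPM against 48.6 to 250 CPM. None of these markers was called, and their part in the 9 genes was not tested.

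Ugt8a differed most between the NR-treated groups, with 89.7 ± 18.4 CPM (n = 4, SD) in hTau.P301S + NR and 68.2 ± 5.69 CPM (n = 4, SD) in WT + NR mice. The log2 fold change was 0.40 (SE 0.14, unadjusted p = 0.0203, adjusted p = 0.781, edgeR), and 6.09% of all genes had an unadjusted p under 0.05. It was 0.24 without hTau.P301S + NR replicate 1, and in the fit of all 4 groups its SE was 0.30 (unadjusted p = 0.208, edgeR). The 2 groups stood clear of each other, as for 1.62% of genes in this direction (two-sided exact permutation p = 0.0286).

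**Figure D4:**
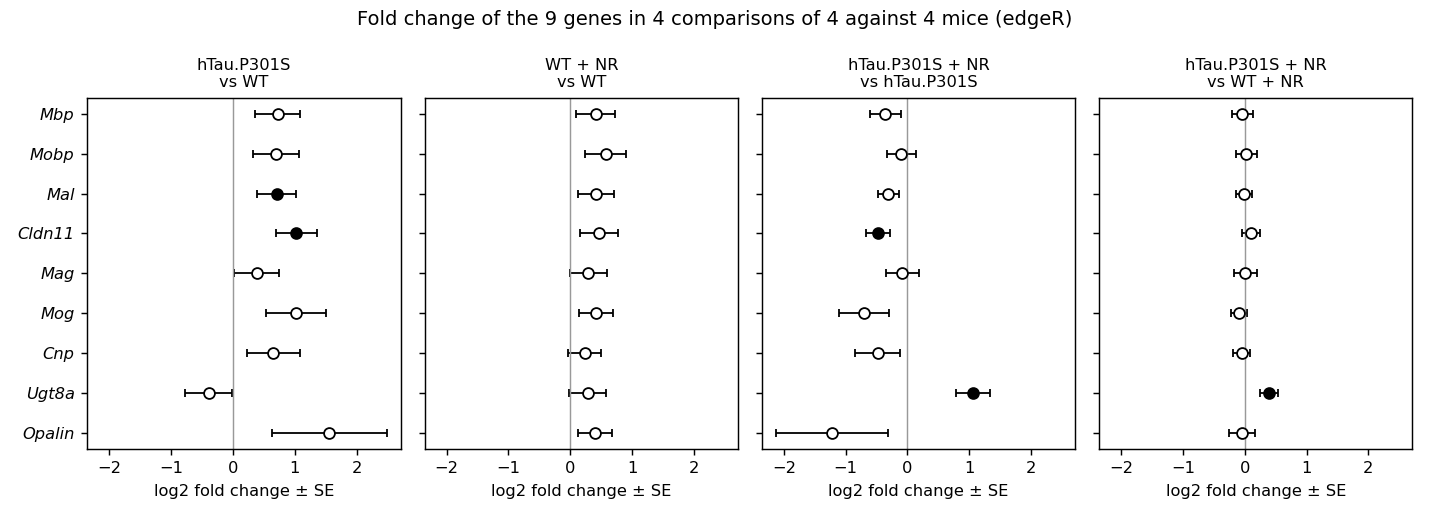
Log2 fold change of the 9 genes in 4 comparisons of 4 against 4 mice (edgeR), with standard errors as bars and filled points for genes whose groups did not overlap. Ugt8a lies on the other side of 0 from the other 8 genes in the comparison of hTau.P301S with WT mice and in that of NR with vehicle in hTau.P301S mice.

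Over both treatments together, in an additive model of genotype and NR with all 16 mice, all 9 genes had a fold change above 0 in hTau.P301S relative to WT. None was called, and of 17555 genes 0.12% were, with 51.6% higher whatever the p and 7.75% at an unadjusted p under 0.05. The median log2 fold change was 0.35, from 0.00 for Ugt8a (SE 0.24) to 0.74 for Opalin (SE 0.54), and Opalin was at -0.13 without hTau.P301S replicate 1. The median was 0.16 without that mouse and 0.21 without WT replicate 3. Cldn11 had a log2 fold change of 0.56 (SE 0.22, unadjusted p = 0.0192, adjusted p = 0.543, edgeR).

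Whether NR acted differently in the 2 genotypes was tested by the interaction, the log2 fold change with NR in hTau.P301S minus that in WT mice. The interaction was below 0 for 8 genes and above 0 for Ugt8a, with a median of -0.71, which was -0.46 without WT replicate 3. Without hTau.P301S replicate 1 the median was -0.52, with 2 genes above 0 and 7 below. None of the 9 genes passed an adjusted p of 0.05 with edgeR. Of all 17555 genes 0 did (0%), 51.7% were below 0 whatever the p, 1390 (7.92%) had an unadjusted p under 0.05, and DESeq2 called 18. Cldn11 had an interaction of -0.92 (SE 0.37, unadjusted p = 0.0241, adjusted p = 0.558, edgeR) and Ugt8a one of 0.79 (SE 0.43, adjusted p = 0.558, edgeR). The interaction of Ugt8a was above 0 under all 24 alternatives, from 0.57 to 1.04, and that of Cldn11 below 0 under all 24, from -1.09 to -0.67. Opalin had an interaction of -1.58 (SE 0.997), which became 0.19 without hTau.P301S replicate 1. All 6 striatal markers had an interaction above 0 (median 3.15) and all 5 choroid plexus markers one below 0 (median -1.04). None of these markers was called, and their part in the 9 genes was not tested.

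Because the level of all 9 genes varied from mouse to mouse, single genes were also set against the mean log2 CPM of the other 8 in the same mouse, a measure chosen after the values were seen and given without a test. Ugt8a lay -1.97 ± 0.12 (n = 4, SD) from the other genes in WT, -2.05 ± 0.30 (n = 4, SD) in WT + NR and -1.66 ± 0.14 (n = 4, SD) in hTau.P301S + NR mice. In hTau.P301S mice it lay -3.91, -3.10, -2.56 and -2.61 from them, below every mouse of the other 3 groups. WT replicate 3, the low mouse in CPM, was at -2.01 and thus among its group.

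Cldn11 lay -0.58 ± 0.035 (n = 4, SD) from the other 8 genes in WT, -0.50 ± 0.12 (n = 4, SD) in WT + NR, -0.03 ± 0.38 (n = 4, SD) in hTau.P301S and -0.41 ± 0.033 (n = 4, SD) in hTau.P301S + NR mice. The hTau.P301S values were -0.34, 0.53, -0.19 and -0.11, all above the WT mice. Opalin lay at -1.10, -5.38, -3.61 and -3.87 in hTau.P301S mice, a spread wider than in any other group, where the values ran from -3.88 to -3.15.

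**Figure D5:**
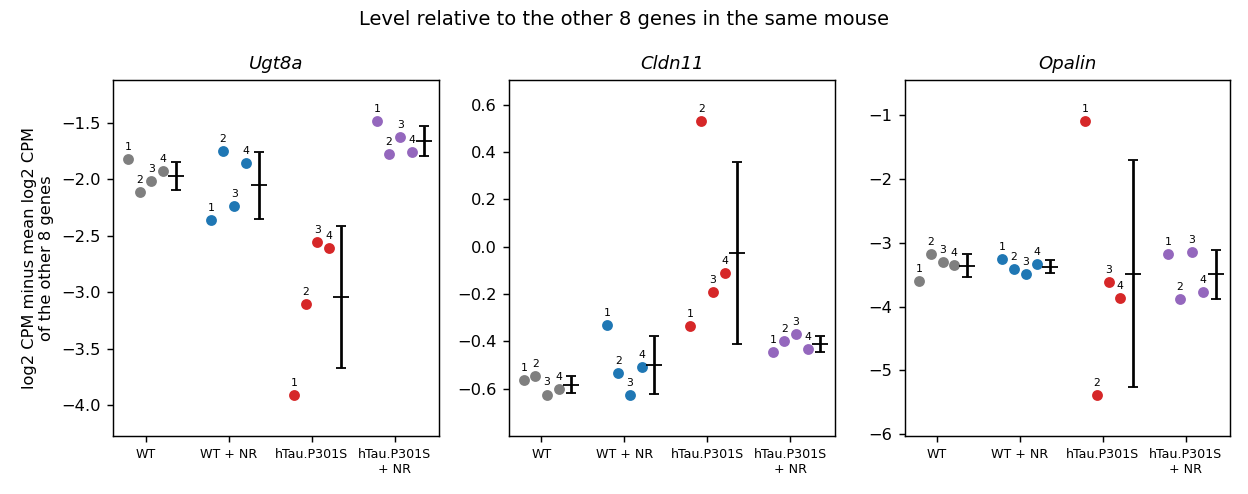
Log2 CPM of Ugt8a, Cldn11 and Opalin minus the mean log2 CPM of the other 8 genes in the same mouse, with the mean ± SD of 4 mice beside the points. Ugt8a is lowest in all 4 hTau.P301S mice, from -3.91 to -2.56, and Opalin spreads widest in that group.

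Genes around the 9 were grouped by role into 8 lists of oligodendrocyte, precursor and axon genes. In none of the pairwise comparisons did edgeR call a gene of these lists, which held 78 genes tested. Between hTau.P301S and WT mice 4 of the 78 were higher and 2 lower at an unadjusted p under 0.05, where 7.14% of all genes passed. With NR in hTau.P301S mice 10 of the 78 were higher and 4 lower, where 12.9% of all genes passed. DESeq2 called at most 4 genes in a comparison, over these lists and those of other cell types together. Among 14 other proteins of myelin, 10 had a fold change above 0 and 4 below it between hTau.P301S and WT mice, with a median log2 fold change of 0.43. Hapln2, a link protein at the node of Ranvier, had groups that did not overlap (3.55% of all genes in this direction), with 52.9 ± 25.0 CPM (n = 4, SD) against 28.2 ± 7.38 CPM (n = 4, SD) and a log2 fold change of 0.92 (SE 0.35, adjusted p = 0.598, edgeR). Among 7 enzymes and transporters of myelin lipid, 6 were higher and 1 lower, with a median of 0.60. Cers2, a ceramide synthase for very long chains, did not overlap either, with a log2 fold change of 0.60 (SE 0.30). Of 12 other genes of mature oligodendrocytes, 11 were higher and 1 lower, with a median of 0.72. In hTau.P301S replicate 1, Trf was at 217 CPM, Qdpr at 559 CPM and Ppp1r14a at 179 CPM. The rest of that group had 20.65 to 32.5 CPM of Trf, 95.6 to 198 CPM of Qdpr and 11.6 to 22.0 CPM of Ppp1r14a. Hapln2 and Cers2 were also highest of their group in that mouse, while Apod, Enpp2, Il33 and Tmem88b were not. WT replicate 3 was the lowest WT mouse for each of these genes. Of 8 signals and receptors of myelination, 5 were higher and 3 lower, with a median of 0.12. Among these, Rtn4r, the Nogo receptor, and Pdgfa, a growth factor for precursors, did not overlap between groups, with log2 fold changes of 0.71 (SE 0.33) and 0.48 (SE 0.22). All these lists were measured in the same mice as the 9 genes.

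In the same comparison, of 10 oligodendrocyte transcription factors, 4 were higher and 6 lower, with a median log2 fold change of -0.02. Myrf was at 0.21 (SE 0.41), Sox10 at -0.15 (SE 0.25) and Olig2 at -0.37 (SE 0.28). Of 7 precursor genes, 2 were higher and 5 lower, with a median of -0.03, and of 9 genes of newly formed oligodendrocytes, 5 were higher and 4 lower, with a median of 0.14. Of 11 genes of the axonal node and paranode, 2 were higher and 9 lower, with a median of -0.16. Their summed level was 1247 CPM in hTau.P301S replicate 1, against 2709, 2817 and 2804 CPM in replicates 2 to 4 of that group. WT mice had 1979 to 3096 CPM, and the list was not summarized without hTau.P301S replicate 1. Sptbn4, the spectrin of the node, had groups that did not overlap and a log2 fold change of -0.49 (SE 0.20, adjusted p = 0.598, edgeR). The share of all genes without overlap in this downward direction is not reported here, so the separation of Sptbn4 cannot be set against it.

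In the hTau.P301S mice given NR, several genes did not overlap between groups, as for 6.33% of all genes upward and 5.54% downward. Fa2h, which hydroxylates the fatty acid of galactosylceramide, was at 66.0 ± 5.27 CPM (n = 4, SD) with NR and 47.3 ± 8.85 CPM (n = 4, SD) without it, a log2 fold change of 0.47 (SE 0.18, adjusted p = 0.367, edgeR). Cntn2, an adhesion protein beside the paranode, had a log2 fold change of 0.64 (SE 0.31) and Tmem88b, a gene of mature oligodendrocytes, one of 0.61 (SE 0.24). Cacng4 of precursors had 0.97 (SE 0.23, adjusted p = 0.345, edgeR), Lpar1, a receptor for lysophosphatidic acid, 0.77 (SE 0.25) and Nrg1, the axonal signal for myelination, 1.02 (SE 0.32). Rtn4r had a log2 fold change of -0.66 (SE 0.17, adjusted p = 0.367, edgeR), Neu4, a sialidase, one of -0.60 (SE 0.24) and Nefl, the light neurofilament subunit, one of -0.41 (SE 0.17). Zfp536, a zinc finger protein, was at 0.61 (SE 0.31). In hTau.P301S replicate 1, Cntn2 was at 52.65 CPM and Zfp536 at 9.83 CPM. The rest of that group had 145.6 to 151.5 CPM of Cntn2 and 24.8 to 30.4 CPM of Zfp536. Sox10 and Olig2 were at 0.53 (SE 0.19) and 0.50 (SE 0.24), with groups that overlapped. The 7 lipid enzymes and transporters had a median of -0.14, with 3 higher and 4 lower. Of the 12 other genes of mature oligodendrocytes, 3 were higher and 9 lower, with a median of -0.38. Of the 11 node and paranode genes, 10 were higher and 1 lower, with a median of 0.25. The 14 other myelin proteins had 7 higher and 7 lower, and the 8 signals and receptors 4 and 4. The transcription factors had 6 higher and 4 lower, the precursor genes 5 and 2, and those of newly formed oligodendrocytes 5 and 4.

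Between the NR-treated groups, Omg (log2 fold change 0.53, SE 0.15), Anln (0.46, SE 0.14) and Tmem88b (0.44, SE 0.13) did not overlap, as for 1.62% of all genes in this direction, and were higher in hTau.P301S + NR mice, with adjusted p of 0.757, 0.781 and 0.757 by edgeR. Apod, an apolipoprotein of oligodendrocytes and astrocytes, did not overlap either and had a log2 fold change of 1.42 (SE 0.48). It was at 355, 1403, 309 and 340.5 CPM in hTau.P301S + NR and at 205 to 270 CPM in WT + NR mice, highest in hTau.P301S + NR replicate 2. In WT mice, Trf (0.67, SE 0.32) and Pdgfa (0.20, SE 0.11) had every treated mouse above every untreated one, where 0.754% of all genes did not overlap. Among markers of other cells, groups did not overlap for Ly6c1 of endothelium (log2 fold change 1.16, SE 0.49) between hTau.P301S and WT mice, nor for Map2 of neurons (0.75, SE 0.39) and Flt1 of endothelium (1.32, SE 0.52) with NR in hTau.P301S mice. Of 5 endothelial markers, 1 was higher and 4 lower between hTau.P301S and WT mice, with a median of -0.56. With NR in hTau.P301S mice, 2 of 8 neuron markers were higher and 6 lower, with a median of -0.14. Of the endothelial markers, 3 were higher and 2 lower with NR in these mice, with a median of 0.29. In hTau.P301S replicate 1, Ly6c1 was at 136 CPM, Map2 at 243 CPM and Flt1 at 5.13 CPM. The rest of that group had 30.9 to 36.0, 774 to 976 and 26.5 to 50.4 CPM of these genes. For none of these lists was a test made against other genes.

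Peripheral myelin was looked for because nerve or root fragments would carry it. The Schwann cell markers Prx, Ncmap and Drp2 summed to 21.8 to 62.6 CPM in hTau.P301S, 38.2 to 81.9 CPM in WT, 48.9 to 67.4 CPM in WT + NR and 55.7 to 66.8 CPM in hTau.P301S + NR mice. Drp2 made up nearly all of these sums, at 20.7 to 79.0 CPM over the 16 mice. Prx was at 0.598 to 6.09 CPM and Ncmap at 0.169 to 1.96 CPM. Between hTau.P301S and WT mice 2 of these 3 genes had a fold change above 0 and 1 below it, with a median log2 fold change of 0.14, and none was called by edgeR.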

How the data were processed

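Hippocampal RNA of 16 mice was enriched for poly(A) RNA and sequenced, with groups and replicate numbers taken from the sample labels. The authors trimmed the reads (FastQC and Trim Galore), aligned them to mm10 with STAR and counted them per gene with RSEM. The deposited counts are raw whole numbers per gene without normalization, and the table also gives a gene length, another value that the authors list without a definition. The library kit does not mark strand, so reads of a gene and of an overlapping antisense gene cannot be told apart.

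The members and gene lists were chosen with earlier results of these data known. Each pairwise comparison was fitted on its 8 mice with edgeR 4.0.16 in R 4.3.3 (default low-count filter, TMM normalization, quasi-likelihood test) over all genes, and genotype and interaction on 16 mice. P-values were adjusted by Benjamini-Hochberg over all genes tested. A gene was called with an absolute log2 fold change above 0.5 and an adjusted p under 0.05, the interaction by the latter alone. Single genes were also compared by a two-sided exact permutation test over mice with scipy 1.17.1 (log2 CPM, prior count 2), which with 4 mice against 4 cannot give a p under 0.0286. The depth of 16490261 to 21915362 counts per mouse sets the counting error, which was small beside the spread between mice.

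All 9 members are named in every comparison. From the other lists, called genes and genes whose groups did not overlap were named, at most the 4 with the largest fold change per list and comparison. The transcription factors Myrf, Sox10 and Olig2, the Schwann cell markers, and the 10 genes most correlated with the mean of the 9 were named besides, and some genes of the lists are not reported here. Positions come from GENCODE's annotation of GRCm38 and promoter windows from RefSeq (GRCm38.p6). Alternatives were DESeq2 1.42.0, its size factors in edgeR, the robust test, one fit of all 4 groups, removal of mitochondrial genes, no low-count filter, a minimum of 10 counts in all mice, the replicate number as a block and each mouse left out. Added after seeing the data were DESeq2 over all 16 mice, the single fit of all 4 groups without hTau.P301S replicate 1, removal of a gene length trend from each mouse, and a fit without hTau.P301S replicate 1 and WT replicate 3. The scripts were tested on simulated counts.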

Additional observations from a re-analysis of the deposited data

Results flagged for a closer look

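Of 36 sets of 4 mice (the 9 genes in 4 groups), 4 held a mouse whose gap to its neighbour was a larger share of the range of the group than Dixon's 95% limit for 4 values. By chance about 1 in 20 such sets is marked. Cldn11 was marked in WT + NR replicate 1 (229 CPM, against 158 to 169 CPM in the other 3 mice, gap 0.848 of the range) and in hTau.P301S replicate 1 (334 CPM, against 239 to 245 CPM, gap 0.936). Opalin was marked in WT replicate 3 (11.1 CPM, against 26.8 to 27.6 CPM, gap 0.949) and in hTau.P301S replicate 1 (209 CPM, against 6.20 to 29.8 CPM, gap 0.884).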

How the results depend on the processing

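Of the 9 genes, 0 were called in each of the 6 comparisons, and this held under all alternatives with edgeR. DESeq2 on the same mice called 1 (Ugt8a) for hTau.P301S + NR against hTau.P301S, and DESeq2 over all 16 mice called 1 there (Ugt8a) and 1 (Cldn11) for hTau.P301S against WT. The median log2 fold change of the 9 genes kept its sign in 5 comparisons and moved by less than 1 SD between mice in all 6. This limit is loose. For hTau.P301S against WT the SD was 0.61 and included both libraries that stood apart. A fall of the median from 0.70 to 0.20 without them thus stayed within it. With 1 mouse left out at a time it ran from 0.44 to 0.86 for hTau.P301S against WT, -0.44 to -0.12 for hTau.P301S + NR against hTau.P301S, 0.16 to 0.54 for WT + NR against WT, -0.09 to 0.09 for hTau.P301S + NR against WT + NR, 0.16 to 0.41 for genotype and -0.89 to -0.46 for the interaction. The count of all genes called was 1 with edgeR against 115 with DESeq2 and 494 with DESeq2 over all 16 mice for hTau.P301S against WT, 1 against 283 for hTau.P301S + NR against hTau.P301S, 9 against 58 for the NR-treated groups, 21 against 105 for genotype and 0 against 18 for the interaction. With 1 mouse left out these edgeR counts ran from 1 to 14, 0 to 33, 8 to 31, 16 to 57 and 0 to 1.

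Signs turned for the genes below, and the cause was not tested. For hTau.P301S against WT, Opalin ran from -0.23 to 1.90 with 1 mouse left out, and was -0.23 in the fit of all 4 groups without hTau.P301S replicate 1. Without that mouse and WT replicate 3, Opalin was at -0.46, Mag at -0.068 and Cnp at -0.028. For hTau.P301S + NR against hTau.P301S, Mag ran from -0.22 to 0.14 and Opalin from -1.57 to 0.57 with 1 mouse left out, and in the fit of all 4 groups without hTau.P301S replicate 1 they were at 0.14 and 0.58. For genotype, Ugt8a ran from -0.10 to 0.13 and Opalin from -0.13 to 0.88, and Ugt8a was at -0.00899 without a filter and -0.0117 with at least 10 counts in every mouse. For the interaction, Opalin ran from -1.95 to 0.19.

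For hTau.P301S + NR against WT + NR, values with 1 mouse left out ran from -0.12 to 0.052 for Mbp, -0.096 to 0.12 for Mobp, -0.12 to 0.035 for Cnp, -0.097 to 0.060 for Mal, -0.12 to 0.18 for Mag and -0.25 to 0.087 for Opalin. With the length trend removed, Mobp was at -0.0061, Mal at 0.036, Mog at 0.0086 and Opalin at 0.056.

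Mice of the same replicate number are different animals. Their deviations from group means correlated from -0.54 to 0.29, over 0.1 in 5 of 16 pairs, and 3 of 16 mice correlated best with their own number. With the replicate number as a block, 0 of the 9 genes were called in each comparison, and Opalin was at 0.54 for hTau.P301S against WT.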
